A study of Homo sapiens with 18 samples.

Results

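RNA left after poly(A) selection was sequenced from PANC-1 cells, an established line of human pancreatic ductal carcinoma, and 10 histone genes were followed through it. The genes are HIST1H1C, HIST1H2AC, HIST1H2BD, HIST1H2BK, HIST1H2BJ, HIST2H2BE and HIST1H4H, which belong to the replication-dependent histone genes, and H1F0, H2AFZ and H3F3B, which belong to the replication-independent ones. They were chosen by name, and all 10 were found among the 26485 genes listed in each of 2 tables. The siRNA table held 9 libraries, with 3 from cells given control siRNA and 3 from each of PKR siRNA 1 and PKR siRNA 2. The C16 table held 9 more, with 3 each of cells given the solvent DMSO, 400 nM C16 or 800 nM C16. All were collected after 72 h, and no other genotype or agent was named for any group. The labels also put every siRNA library in run 1 and every C16 library in run 2, without saying what a run is. PKR, the product of EIF2AK2, is a kinase switched on by double-stranded RNA, the siRNAs lower its mRNA and C16 inhibits the kinase itself. Each siRNA is a single reagent in a single cell line, and the sources do not say whether the 3 libraries of a group came from separate cultures, so p-values measure the spread between these libraries, which may be technical.

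Nucleosomes wrap DNA around pairs of H2A, H2B, H3 and H4, and linker histone H1 binds where the DNA enters and leaves. In dividing cells most histone protein comes from replication-dependent genes, which lie in clusters, are transcribed mainly in S phase, and yield mRNA that ends in a stem-loop bound by SLBP rather than in a poly(A) tail. Replication-independent genes such as H1F0, H2AFZ and H3F3B are expressed outside S phase too and give ordinary polyadenylated mRNA. Some replication-dependent genes can also give polyadenylated transcripts, often described in differentiating or resting cells. The tables count reads per gene and do not show 3′ ends, so a count here is what poly(A) selection left of a gene's RNA, and whether a given read came from a tailed molecule was not measured.

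The 3′-end signals of the gene models are shown first, as context for counts from poly(A)-selected RNA. The hg38 sequence of each exon model that the authors counted on was searched for the stem-loop (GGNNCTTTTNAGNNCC, same strand) and for the poly(A) signals AATAAA and ATTAAA. The stem-loop letters were found in 6 of the 10 genes, given here 5′ to 3′ with the 2 arms that pair in capitals and the loop in lower case.
HIST1H1C: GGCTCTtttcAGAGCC
HIST1H2AC: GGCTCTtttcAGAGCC
HIST2H2BE: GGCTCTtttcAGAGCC
HIST1H2BD: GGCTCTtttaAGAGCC
HIST1H2BJ: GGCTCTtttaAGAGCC
HIST1H4H: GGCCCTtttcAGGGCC
HIST1H1C, HIST1H2AC and HIST2H2BE shared all 16 letters, HIST1H2BD and HIST1H2BJ shared a second form, and HIST1H4H had a form of its own. The letters lay at chr6:26055744-26055759 for HIST1H1C, chr6:26124669-26124684 for HIST1H2AC, chr1:149886188-149886203 for HIST2H2BE, chr6:26158587-26158602 for HIST1H2BD, chr6:27132321-27132336 for HIST1H2BJ and chr6:26285131-26285146 for HIST1H4H. HIST1H2AC and HIST1H2BD are on the plus strand and the other 4 on the minus strand.

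In HIST1H1C, HIST1H2AC, HIST1H2BJ and HIST1H4H the stem-loop closed the only exon, 4 to 6 bases before its end, and no poly(A) signal stood in that exon. In HIST1H2BD, which encodes an H2B, it closed exon 1 of 2, and exon 2 ended with AATAAA 18 bases before its last base. In HIST2H2BE, another H2B gene, a single exon of 2223 bases ran 1728 bases past the stem-loop to an AATAAA 17 bases before its end. The HIST1H2BK model, of 2 exons, held no stem-loop letters and had AATAAA 20 bases before its end. H1F0, H2AFZ and H3F3B had AATAAA 20, 15 and 14 bases before their ends. These are features of the counted models and not of every transcript. GENCODE release 44 places 1122 exon bases of HIST1H2AC, 566 of HIST1H2BJ and 1789 of HIST1H4H outside the counted model, with 3 transcripts for each gene. For HIST1H2BK it has a single transcript of 495 bases, of which 48 lie outside the counted model, and 392 bases of that model are not in it. Bases outside the models were not searched. Among 22978 last exons of the annotation, 0.248% held the stem-loop letters in their last 100 bases and 74.8% held a poly(A) signal there. Of 67 HIST genes searched in the same way, 88.1% held the stem-loop at an exon end and 8.96% the poly(A) signal at the end of the last exon, the latter in HIST1H2BD, HIST1H2BH, HIST1H2BK, HIST1H4J, HIST2H2AC and HIST2H2BE.

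**Figure D1:**
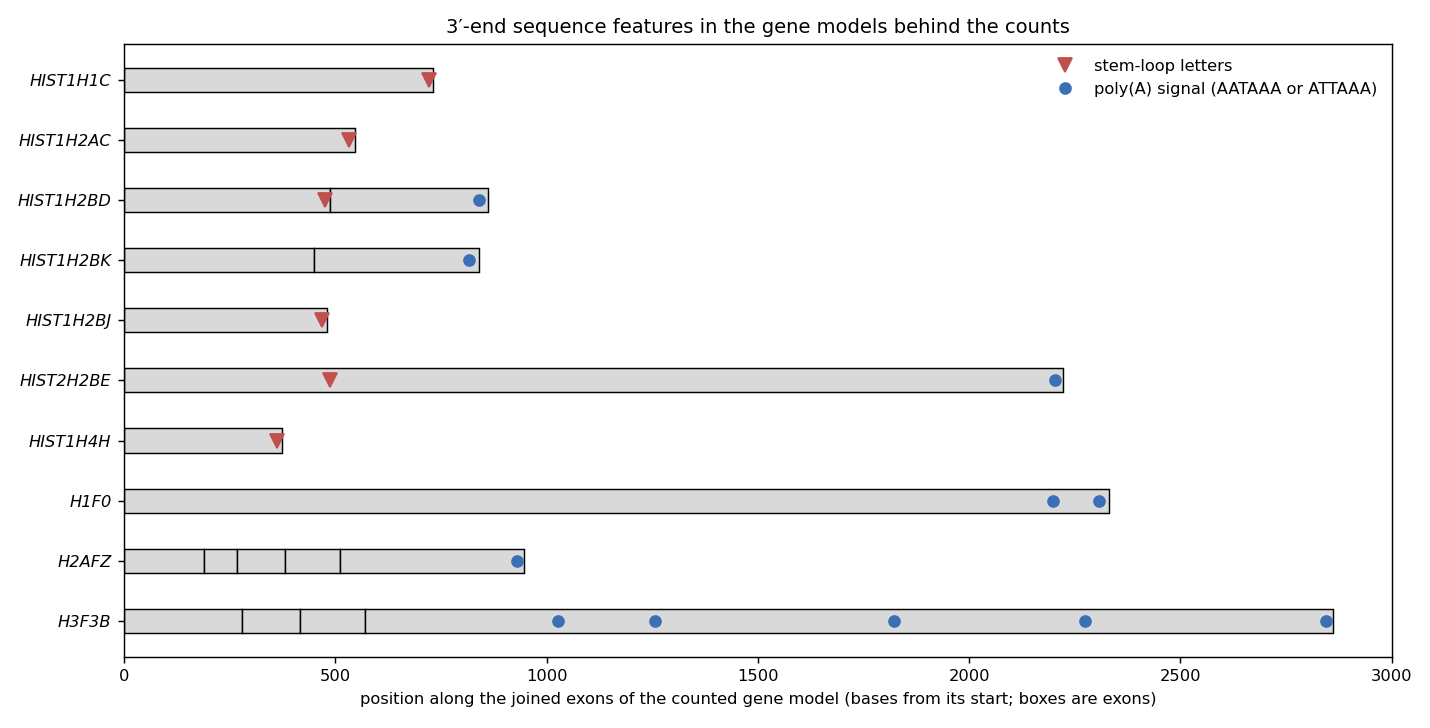
Positions of stem-loop letters (triangles) and poly(A) signals (circles) along the joined exons of each counted gene model, in bases from its start, with boxes for exons. HIST1H2BD and HIST2H2BE carry both features, HIST1H2BK and the 3 replication-independent genes carry poly(A) signals alone, and the other 4 carry the stem-loop alone.

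Promoters are shown for 3 of the 4 H2B genes, HIST1H2BK, HIST1H2BJ and HIST2H2BE, whose levels were higher with PKR siRNA 1 than with PKR siRNA 2. They run from 250 bases before the RefSeq start to 50 after it (GRCh38.p14), 5′ to 3′ on the gene's strand, with capitals for the octamer (ATTTGCAT or ATGCAAAT), for CCAAT or ATTGG and for TATAAA.
HIST1H2BK, chr6:27146809-27147108, minus strand: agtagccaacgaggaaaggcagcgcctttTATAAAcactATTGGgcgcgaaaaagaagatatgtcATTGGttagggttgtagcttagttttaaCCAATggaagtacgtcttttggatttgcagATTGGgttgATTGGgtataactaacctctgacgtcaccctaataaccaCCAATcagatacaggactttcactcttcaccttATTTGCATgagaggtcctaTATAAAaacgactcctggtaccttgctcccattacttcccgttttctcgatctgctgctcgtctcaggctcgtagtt
HIST1H2BJ, chr6:27132746-27133045, minus strand: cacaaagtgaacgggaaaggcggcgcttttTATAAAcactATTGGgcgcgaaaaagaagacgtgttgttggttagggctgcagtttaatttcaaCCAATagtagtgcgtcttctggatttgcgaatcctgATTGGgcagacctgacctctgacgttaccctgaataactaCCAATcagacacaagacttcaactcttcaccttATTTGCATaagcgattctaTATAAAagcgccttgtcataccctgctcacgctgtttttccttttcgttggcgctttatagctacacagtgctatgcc
HIST2H2BE, chr1:149886633-149886932, minus strand: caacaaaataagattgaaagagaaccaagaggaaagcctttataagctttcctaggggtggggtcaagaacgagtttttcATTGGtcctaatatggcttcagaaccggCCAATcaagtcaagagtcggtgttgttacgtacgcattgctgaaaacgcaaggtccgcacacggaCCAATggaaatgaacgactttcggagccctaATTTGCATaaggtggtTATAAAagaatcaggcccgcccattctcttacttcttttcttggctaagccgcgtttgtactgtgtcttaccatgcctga
The 3 promoters had the octamer at -46 or -47 from the start and TATAAA at -27, -28 and -30, and HIST1H2BK and HIST1H2BJ were identical at 74.6% of aligned positions. The octamer is a recognised element of H2B promoters, bound by OCT1. It was also in the promoters of HIST1H2AC and H3F3B, and 1.77% of 35116 RefSeq promoters held it. The promoters of HIST1H2BD, HIST1H1C, H2AFZ and HIST1H4H held none. HIST1H1C, H2AFZ and HIST1H4H also stood lower with PKR siRNA 2 than with PKR siRNA 1. H3F3B, with the octamer, stood higher by less than 1.5-fold. HIST1H2BJ and HIST1H4H had few reads. The 3 promoters were chosen for the order of their genes' levels, and whether the octamer has a part in that order was not tested. CCAAT or ATTGG was in 34.6% of all promoters and TATAAA in 7.33%. A promoter sequence was matched for 9 of the 10 genes, and H1F0 had none.

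The libraries held 1512940 to 1873906 reads on genes in the siRNA table and 894145 to 1474308 in the C16 table. EIF2AK2, the target of both siRNAs, was at 95.5, 93.5 and 103 normalized counts in the control siRNA libraries. It was at 10.0, 13.6 and 9.65 in those of PKR siRNA 1 and at 7.96, 8.58 and 9.40 in those of PKR siRNA 2. PKR siRNA 2 against PKR siRNA 1 differed by -0.31 on the log2 scale for EIF2AK2 (95% CI -0.80 to 0.18). The sum of 6 epithelial markers was 5358 to 5451 normalized counts in control siRNA libraries, 3052 to 3280 with PKR siRNA 1 and 9586 to 10230 with PKR siRNA 2. The sum rests mostly on KRT8, KRT18 and KRT19, and the 6 did not move together. With PKR siRNA 1, 5 of the 6 fell and none rose. With PKR siRNA 2, 3 rose and 2 fell, and the latter were EPCAM, by 3.14 on the log2 scale (SE 0.24, limma adjusted p = 8.03e-20), and KRT7, by 1.86 (SE 0.37, limma adjusted p = 1.62e-05). In the C16 table the sum was 7171 to 7572 with DMSO, 6033 to 6544 at 400 nM and 5172 to 5685 at 800 nM. Of the 5 tested there, 2 fell and 0 rose at 400 nM, and 2 fell and 1 rose at 800 nM, where DESeq2 called 1. At 800 nM KRT19 fell by 1.49 (SE 0.07, limma adjusted p = 1.15e-27), whereas EPCAM rose by 0.74 (SE 0.24, limma adjusted p = 0.00866). Of 11 markers of other cell types, 8 to 10 were at 0 in all libraries of a group, and PTPRC, CD3E, HBB, ALB, INS and GCG were at 0 throughout. The 11 summed to 147 to 169 normalized counts in control siRNA libraries, 205.5 to 274 with PKR siRNA 1 and 197 to 208 with PKR siRNA 2. In the C16 table they summed to 51.0 to 58.3 with DMSO, 141 to 171 at 400 nM and 104 to 124 at 800 nM. Most of it was CD68, a lysosomal protein known as a macrophage marker, the only 1 of the 11 that passed the filter. CD68 rose by 1.55 at 400 nM (SE 0.12, limma adjusted p = 7.16e-16) and stood at 53.3 ± 3.53 normalized counts with DMSO against 115 ± 10.2 at 800 nM (limma adjusted p = 5.21e-11). With PKR siRNA 1 it was called by edgeR and DESeq2 but not by limma. The part of these shifts in the histone results was not tested.

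The 7 replication-dependent genes followed here carried most of the reads counted on their class. Together they made 77.8% to 89.5% of the normalized counts on replication-dependent histone genes in every library, and the other 66 genes of the class made the remainder. None of those 66 reached a mean of 10 normalized counts in either table, and 24 of them were at 0 in every siRNA library and 36 in every C16 library. Some of the 66 share their counted coordinates in pairs and were at 0 throughout, and a few carry pseudogene symbols. Genes that share coordinates can lose reads in counting, so such a 0 need not mean absent RNA, and the shares hold for counted reads only. In the siRNA table the 7 summed to 257 ± 17.1 normalized counts in controls (SD, n = 3), 438 ± 13.2 with PKR siRNA 1 and 257 ± 19.0 with PKR siRNA 2. In the C16 table the sum was 136 ± 20.1 with DMSO, 155 ± 7.05 at 400 nM and 149 ± 16.3 at 800 nM. The other 66 summed to 37.3 ± 4.94, 61.5 ± 10.1 and 63.9 ± 3.56 in the 3 siRNA groups and to 24.0 ± 3.51, 25.4 ± 4.78 and 19.99 ± 4.99 in the 3 C16 groups. The summed count of the 7 genes thus stood above its controls with PKR siRNA 1 and not with PKR siRNA 2. That of the other 66 stood above with both, and these sums were not tested. HIST1H2BK was the largest part of the sum of the 7, at means of 164 in controls, 263 with PKR siRNA 1 and 125 with PKR siRNA 2. HIST1H2BD went from 26.6 in controls to 55.3 with PKR siRNA 2 and HIST1H1C from 34.2 to 45.6, so the equal sums do not mean unchanged genes.

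Per kilobase of exon, the replication-independent genes H2AFZ and H3F3B stood highest in both control groups. With control siRNA, H2AFZ was at 781 ± 18.2 normalized counts per kilobase, H3F3B at 357 ± 28.0, HIST1H2BK at 196 ± 15.4 and H1F0 at 126 ± 7.59, with no overlap between neighbours. HIST1H1C followed at 46.8 ± 5.23, HIST1H2BD at 30.9 ± 10.9, HIST1H2AC at 24.7 ± 1.89, HIST1H2BJ at 14.9 ± 9.13, HIST1H4H at 8.27 ± 3.21 and HIST2H2BE at 3.75 ± 1.65, and from HIST1H1C down each neighbour overlapped the next. In DMSO the first 4 were the same, at 516 ± 25.4, 217 ± 4.81, 93.4 ± 25.0 and 64.0 ± 6.35, but HIST1H2BK and H1F0 overlapped. Among the 7 replication-dependent genes, HIST1H2BK was therefore the most abundant per kilobase in both control groups. HIST1H1C, whose model holds the stem-loop alone, overlapped HIST1H2BD and stood above HIST2H2BE with control siRNA, although both of these have a poly(A) signal. The value of HIST2H2BE divides its reads by the whole of its long exon.

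With PKR siRNA 1, 4 of the 8 genes that passed a filter of a mean of 10 normalized counts rose against control siRNA, and none fell. A gene is called changed here at a Benjamini-Hochberg adjusted p under 0.05 from limma over all tested genes together with a fold change over 1.5, on the log2(normalized count + 1) scale, which understates changes of low genes. The 4 were the linker histone gene HIST1H1C and the H2B genes HIST1H2BD, HIST1H2BK and HIST2H2BE. Of all 10593 genes tested, 8.53% were called higher and 12.6% lower in the same comparison. The median log2 fold change of the 8 was 0.59 against -0.01 over all tested genes. HIST2H2BE passed the filter only through the PKR siRNA 1 libraries, so its count among the 8 is no independent support. Fewer cells of one kind and less RNA per cell cannot be told apart in bulk RNA.

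HIST1H1C encodes a widely expressed linker histone, H1.2. It was at 38.0, 34.4 and 30.3 normalized counts with control siRNA and at 67.8, 68.0 and 78.2 with PKR siRNA 1. All 3 libraries of PKR siRNA 1 stood above all controls, and the gene rose by 1.04 on the log2 scale (SE 0.17, limma adjusted p = 2.58e-07).

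HIST1H2BK, the most abundant H2B gene here, was at 173, 149 and 171 in controls and at 253, 268 and 266 with PKR siRNA 1. It rose by 0.68 (SE 0.10, limma adjusted p = 1.06e-08), again without overlap between the groups. HIST1H2BD, the H2B gene with both signals on separate exons, was at 26.7, 17.2 and 36.0 and then at 41.1, 49.9 and 44.4. It rose by 0.79 (SE 0.19, limma adjusted p = 0.000473), but its control libraries were spread, and without control siRNA replicate 2 the difference was 0.52, under 1.5-fold.

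HIST2H2BE was at 5.13, 7.52 and 12.3 normalized counts with control siRNA and at 17.8, 18.1 and 21.2 with PKR siRNA 1. It rose by 1.17 (SE 0.36, limma adjusted p = 0.00562), and the call was lost without control siRNA replicate 1 (0.91, adjusted p = 0.0535). HIST1H2BJ, an H2B gene beside HIST1H2BK on chromosome 6, did not pass the filter and was at 3.08, 11.8 and 6.64 with control siRNA and at 15.6, 13.6 and 15.4 with PKR siRNA 1. HIST1H4H, the one H4 gene, did not pass it either, at 3.08, 4.30 and 1.90 against 7.78, 8.16 and 7.72. The 2 groups did not overlap for HIST1H2BJ or HIST1H4H, with ratios of means of 2.07 and 2.55, and an exact two-sided permutation test gave p = 0.1 for each, the smallest that 3 against 3 libraries allow.

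HIST1H2AC, the one replication-dependent H2A gene, was at 12.3, 14.0 and 14.2 in controls and at 19.99, 15.4 and 15.4 with PKR siRNA 1. The difference of 0.30 did not pass the test (95% CI -0.26 to 0.86, limma adjusted p = 0.404). H2AFZ encodes the variant H2A.Z, found at promoters and regulatory regions. It was at 755, 721 and 743 with control siRNA and at 1053, 999 and 1087 with PKR siRNA 1, higher by 0.50 (SE 0.06, limma adjusted p = 6.65e-12) without reaching 1.5-fold. H3F3B, one of the genes for the variant H3.3, was at 1042, 935 and 1091 and then at 927, 887 and 916, a difference of -0.17 (SE 0.05, limma adjusted p = 0.00874) that was also under 1.5-fold. H1F0, which encodes the linker histone H1.0 of slowly dividing and differentiated cells, was at 313, 278 and 291 against 242, 281 and 271, and the groups overlapped (-0.15, 95% CI -0.31 to 0.00, limma adjusted p = 0.107).

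**Figure D2:**
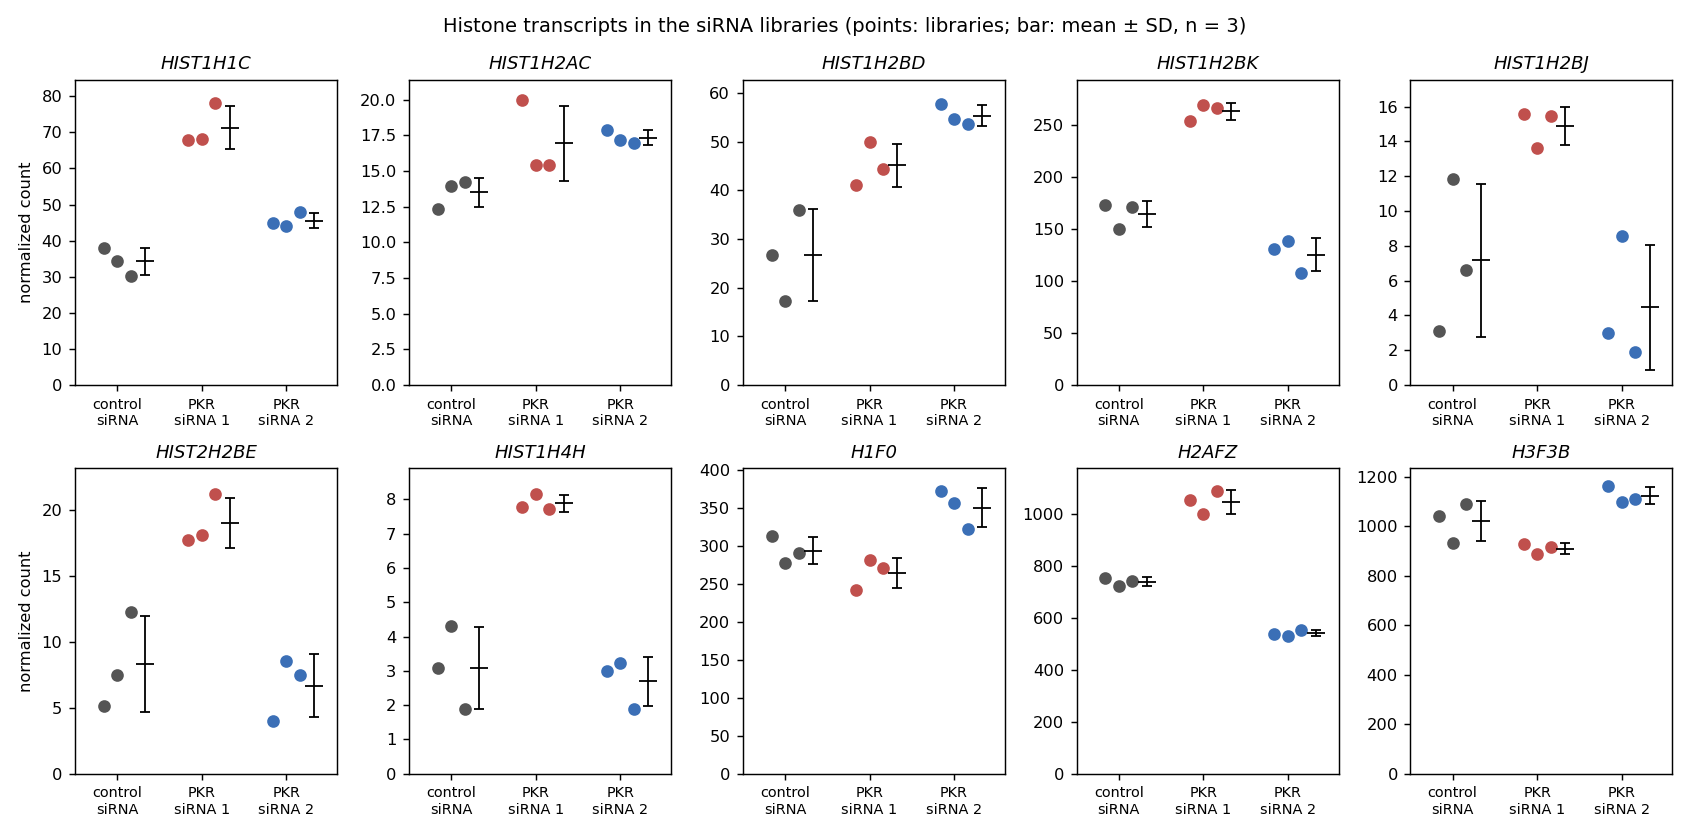
Normalized counts (vertical axes, from 0, scaled per gene) of the 10 histone genes in the 9 siRNA libraries; points are libraries and the black mark is the mean ± SD of 3. PKR siRNA 1 libraries lie above all control libraries in each gene but H1F0, where the groups overlap, and H3F3B, where they lie below. PKR siRNA 2 libraries lie above all controls in HIST1H1C, HIST1H2AC, HIST1H2BD, H1F0 and H3F3B and below them in HIST1H2BK and H2AFZ. The share of all genes whose groups separate in this way was not computed, and HIST1H2AC did not pass the test with either siRNA.

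PKR siRNA 2 gave another pattern. Of the 8 genes tested against control siRNA, HIST1H2BD alone was called, and it rose. Over all tested genes 10.8% were called higher and 12.8% lower, so 1 of 8 is near the background. HIST1H2BD was at 57.7, 54.7 and 53.6 normalized counts, above every control library, and rose by 1.09 (SE 0.19, limma adjusted p = 2.29e-06). It was called higher with either siRNA against the same control libraries, and the 2 siRNAs differed by 0.29 (95% CI -0.09 to 0.68, limma adjusted p = 0.197).

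The other 7 tested genes moved by less than 1.5-fold with PKR siRNA 2. HIST1H1C was at 44.8, 43.96 and 48.0, higher than control by 0.41 (SE 0.17, limma adjusted p = 0.0391). HIST1H2BK was at 130.3, 138 and 107 and H2AFZ at 536, 532 and 554, both below every control library. The differences were -0.39 for HIST1H2BK (SE 0.10, limma adjusted p = 0.000472) and -0.45 for H2AFZ (SE 0.06, limma adjusted p = 1.77e-10). H1F0, at 373, 357 and 323, was higher by 0.25 (SE 0.08, limma adjusted p = 0.00552), and H3F3B, at 1162, 1098 and 1111, by 0.14 (SE 0.05, limma adjusted p = 0.0288). HIST1H2AC, at 17.9, 17.2 and 16.9, did not pass the test (0.34, 95% CI -0.22 to 0.90), and neither did HIST2H2BE, at 3.98, 8.58 and 7.52 (-0.26, 95% CI -0.98 to 0.46). HIST1H2BJ and HIST1H4H were under the filter. HIST1H2BJ stood at 2.98, 8.58 and 1.88, with a ratio of means of 0.62 to its controls (exact permutation p = 0.5), and HIST1H4H at 2.98, 3.22 and 1.88, each overlapping its controls.

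Set directly against PKR siRNA 1, PKR siRNA 2 gave lower levels of 4 of the 8 genes and higher levels of none. HIST2H2BE fell by 1.43 on the log2 scale (SE 0.36, limma adjusted p = 0.000494), HIST1H2BK by 1.07 (SE 0.10, limma adjusted p = 3.32e-16), H2AFZ by 0.95 (SE 0.06, limma adjusted p = 1.80e-25) and HIST1H1C by 0.63 (SE 0.17, limma adjusted p = 0.000874). HIST2H2BE reached the filter through its PKR siRNA 1 libraries alone, so its place among the 4 is no support here either. For each of the 4, all 3 libraries of PKR siRNA 2 lay below all 3 of PKR siRNA 1. The 4 were picked by their calls, so this separation is no further support, and the share of all genes that separate in this way was not computed. In this comparison 16.4% of all tested genes were called higher and 15.3% lower. The HIST1H1C difference was under 1.5-fold without PKR siRNA 1 replicate 3 (-0.57). H1F0 was higher by 0.40 (SE 0.08, limma adjusted p = 7.78e-06) and H3F3B by 0.30 (SE 0.05, limma adjusted p = 1.34e-06), both under 1.5-fold. The low genes HIST1H2BJ and HIST1H4H did not overlap between the 2 siRNAs either, with ratios of means of 0.30 and 0.34 (exact permutation p = 0.1 for each). Without the filter they were also called lower, with limma adjusted p of 0.0029 and 0.0324, which brought the count to 6. In that setting 1823 of 18230 genes were called lower. Both genes rest on 2 to 16 reads per library here and are highest with PKR siRNA 1, so they are no independent support.

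With 800 nM C16, H1F0 and HIST1H2BD fell and no gene rose among the 6 that passed the filter in the C16 table. HIST1H2AC, HIST1H2BJ, HIST2H2BE and HIST1H4H did not pass it. Over the 9963 genes tested against DMSO, 11.6% were called higher and 14.1% lower at 800 nM, and 7.08% higher and 5.45% lower at 400 nM. At 400 nM, H1F0 alone of the 6 was called, and it was lower. Between the doses, 1.13% of genes were called higher at 800 nM and 3.95% lower, and both H1F0 and HIST1H2BD were among the latter.

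H1F0 was lower at each higher dose. It was at 146, 136 and 165 normalized counts with DMSO, at 87.2, 91.1 and 112 with 400 nM and at 48.4, 54.8 and 54.4 with 800 nM. No 2 groups overlapped. H1F0 fell by 0.62 at 400 nM (SE 0.13, limma adjusted p = 0.000145) and by 1.48 at 800 nM (SE 0.13, limma adjusted p = 8.55e-15). Between the doses it fell by 0.86 (SE 0.13, limma adjusted p = 1.38e-06). At 400 nM the change was near the fold limit, and it was under 1.5-fold without DMSO replicate 3 (-0.55) or without C16 400 nM replicate 1 (-0.55).

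HIST1H2BD was at 17.5, 31.4 and 34.3 with DMSO, at 16.0, 15.0 and 18.1 with 400 nM and at 10.1, 12.2 and 4.77 with 800 nM. It fell by 1.55 at 800 nM against DMSO (SE 0.31, limma adjusted p = 3.05e-05). The 400 nM libraries overlapped the DMSO libraries through DMSO replicate 1, and the difference of -0.68 did not pass (95% CI -1.29 to -0.06, limma adjusted p = 0.0951). It was called at 400 nM with edgeR on reads (-0.79, adjusted p = 0.0178), when only the 2 groups were fitted (-0.68, adjusted p = 0.0434) and without DMSO replicate 1 (-0.97, adjusted p = 0.0316). Between the doses it fell by 0.87 (SE 0.31, limma adjusted p = 0.0437), at the edge of the threshold. That call was lost with a pseudocount of 5, without the filter, with only the 2 groups fitted, with edgeR or DESeq2 on reads, or when any one of the 400 nM libraries or 800 nM replicate 3 was left out. Reads behind these values were few, from 5 to 10 per library at 800 nM and 18 to 45 with DMSO.

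H2AFZ and H3F3B moved in opposite directions with C16, each by less than 1.5-fold. H2AFZ was at 494, 510.5 and 463 with DMSO, at 616, 632 and 663 with 400 nM and at 590.1, 598 and 613 with 800 nM. It was higher by 0.38 at 400 nM (SE 0.07, limma adjusted p = 1.42e-05) and by 0.30 at 800 nM (SE 0.07, limma adjusted p = 0.000303). H3F3B was at 637, 615 and 612 with DMSO, at 537, 509 and 521 with 400 nM and at 472, 486 and 497 with 800 nM. The differences were -0.25 (SE 0.07, limma adjusted p = 0.00408) and -0.36 (SE 0.07, limma adjusted p = 1.98e-05), and no DMSO library overlapped a C16 library in either gene. Between the doses neither passed the test.

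HIST1H2BK was at 74.8, 100.9 and 59.4 with DMSO, at 105, 107 and 107 with 400 nM and at 116, 118 and 87.8 with 800 nM. It was higher by 0.47 at both doses (SE 0.14 each, limma adjusted p = 0.0072 at 400 nM and 0.00425 at 800 nM), under 1.5-fold, and 800 nM overlapped DMSO. Without DMSO replicate 2, the highest of the DMSO libraries, the difference was 0.67 at either dose and passed both thresholds. At 800 nM it did so too without C16 800 nM replicate 3 (0.61). HIST1H1C, at 15.5, 14.3 and 16.0 with DMSO, 18.1, 15.0 and 8.51 with 400 nM and 14.1, 11.0 and 17.2 with 800 nM, overlapped in all comparisons. Its differences from DMSO were -0.19 (95% CI -0.80 to 0.42) and -0.13 (95% CI -0.74 to 0.48), intervals that allow a change of 1.5-fold.

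The 4 genes under the filter in the C16 table had few reads. HIST1H2AC was at 7.77, 5.71 and 11.4 normalized counts with DMSO, at 7.44, 8.07 and 4.26 with 400 nM and at 5.04, 3.66 and 7.63 with 800 nM. HIST2H2BE was at 2.91, 0.95 and 4.57, then 3.19, 3.46 and 1.06, then 6.05, 4.87 and 2.86. Both overlapped in every comparison, and no difference was detectable at this depth. HIST1H2BJ was at 2.91, 2.86 and 0.76, then 6.38, 1.15 and 7.45, then 5.04, 3.66 and 6.68. HIST1H4H was at 0, 2.86 and 1.52, then 6.38, 1.15 and 3.19, then 4.03, 3.66 and 3.82. For HIST1H2BJ and HIST1H4H the 800 nM libraries stood above all DMSO libraries, on 3 to 7 reads each against 0 to 3, with an exact permutation p of 0.1. In both genes the lowest 800 nM library and the highest DMSO library each held 3 reads, so they were separated by the scaling of libraries alone.

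**Figure D3:**
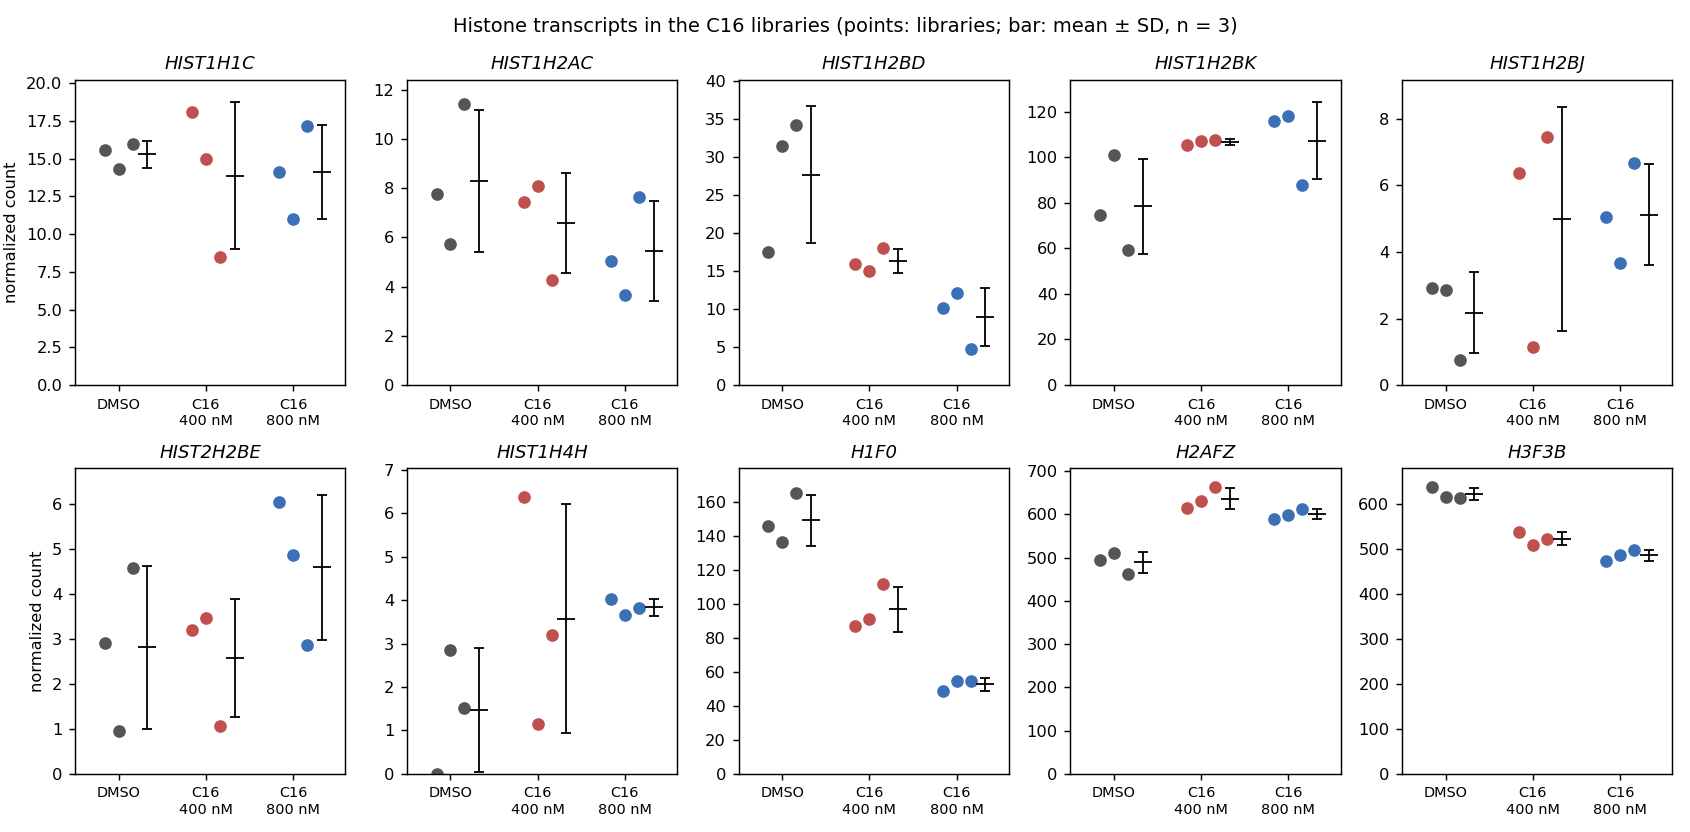
Normalized counts (vertical axes, from 0, scaled per gene) of the 10 histone genes in the 9 C16 libraries; points are libraries and the black mark is the mean ± SD of 3. H1F0 steps down from DMSO to 400 nM to 800 nM without overlap, HIST1H2BD is lowest at 800 nM, and H2AFZ is higher in both C16 groups than in DMSO.

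**Figure D4:**
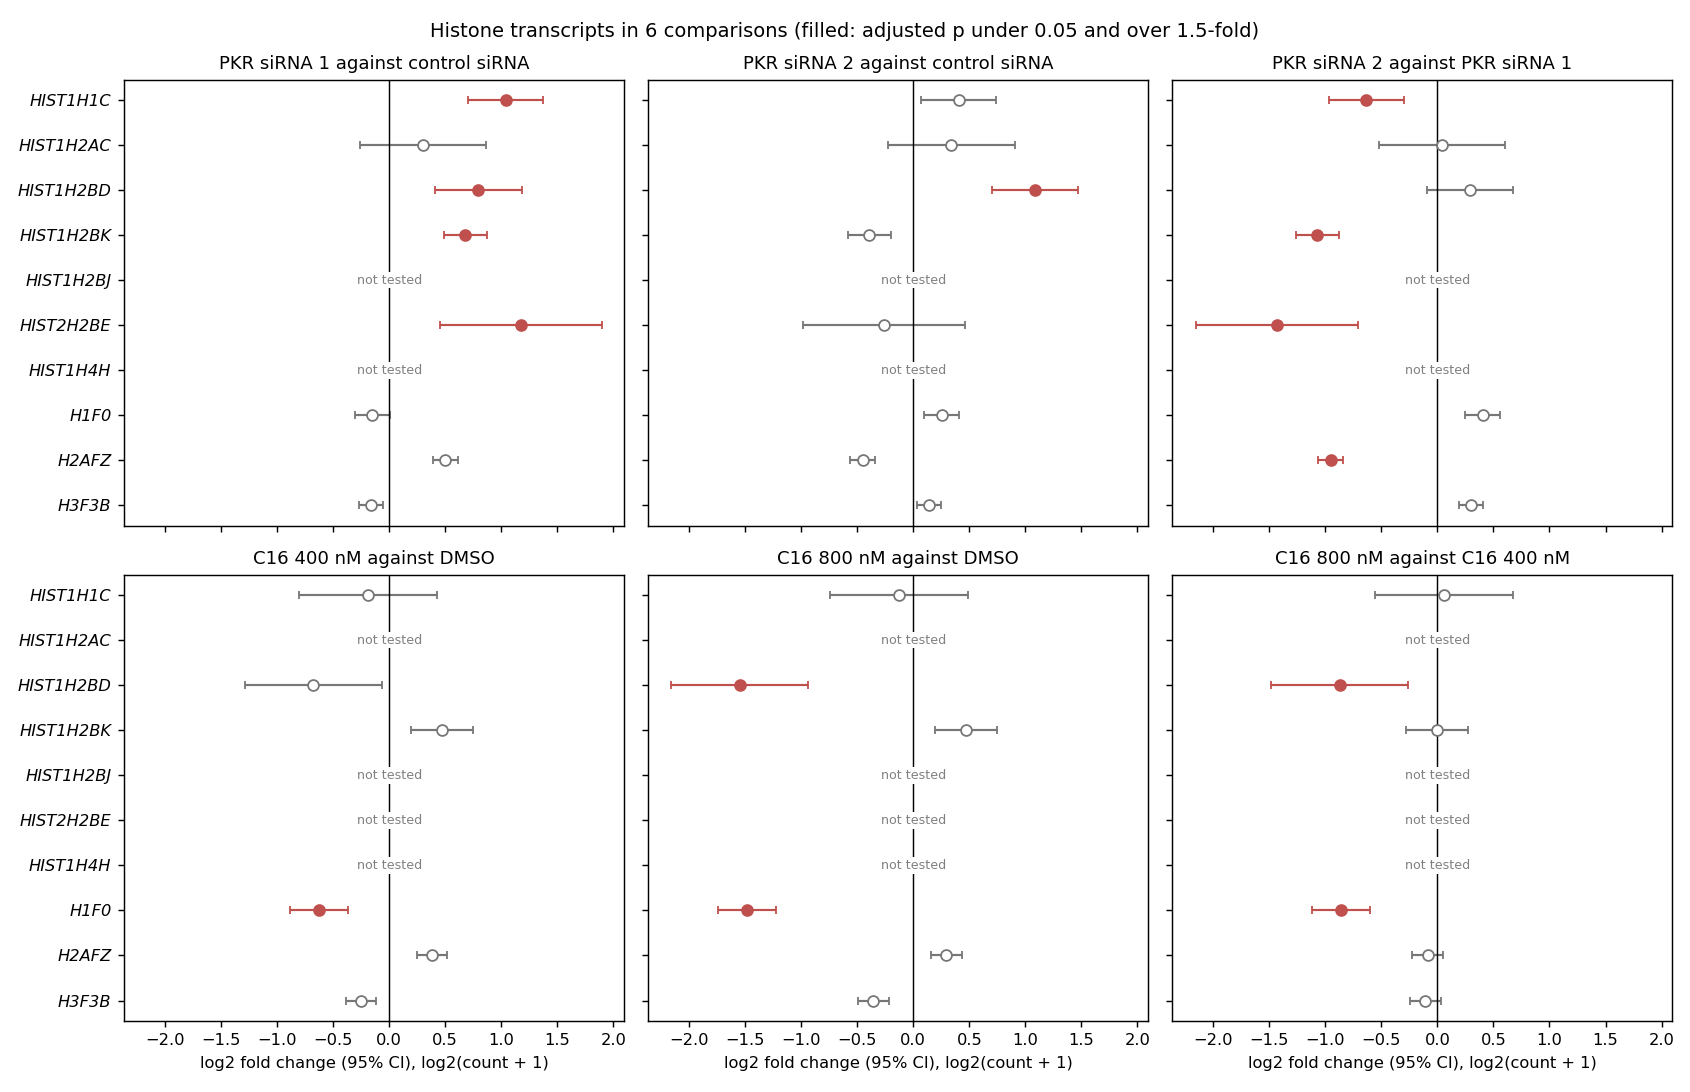
Log2 fold change with its 95% CI (horizontal axis) of each histone gene in the 6 comparisons; filled points passed both thresholds and "not tested" marks genes under the filter. Filled points lie right of 0 for 4 genes with PKR siRNA 1 and for HIST1H2BD with PKR siRNA 2, and left of 0 for H1F0 in all 3 C16 comparisons.

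The siRNA and the C16 libraries are labelled as separate runs, and levels were not compared between the runs. HIST1H2BD was called higher with both siRNAs and lower with 800 nM C16, and H1F0 was called lower with C16 and in no siRNA comparison. Whether the effects of siRNA and C16 differ was not tested, since the run and the type of treatment cannot be told apart.

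Other histone genes were read for context. Of 16 other replication-independent histone genes listed, 6 were tested in the siRNA libraries and limma called 0 in each of the 3 comparisons, as did edgeR and DESeq2. At an unadjusted p under 0.05 there were 3 for either siRNA against its control and 2 between the siRNAs. In the C16 libraries the test took in 7. H2AFV, which encodes a second H2A.Z protein, fell by 0.59 at 400 nM (SE 0.10, limma adjusted p = 2.07e-06) and by 0.79 at 800 nM (SE 0.10, limma adjusted p = 5.52e-10), against a higher level of H2AFZ in the same libraries. H1FX, another linker histone gene, fell by 0.77 at 800 nM (SE 0.15, limma adjusted p = 2.17e-05), so both replication-independent linker histone genes tested, H1F0 and H1FX, were called lower at that dose. H3F3A, the second gene for H3.3, was listed at 0 in every siRNA library, and it was named after its values were seen. Near-identical gene copies can share or lose reads, so values of H3F3B and of the H2B genes, whose coding sequences are close copies, are uncertain to that extent. In GENCODE release 44, 29.6% of the counted exon bases of HIST1H2BK overlap another gene on its strand and 39.6% of those of HIST1H4H a gene on the opposite strand, and whether counting used strand is not given in the sources used here.

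The factors that make histone mRNA were read from a list of 16. Of these genes for histone gene transcription and stem-loop processing, 2 rose and none fell with PKR siRNA 1, and 1 rose and 1 fell with PKR siRNA 2. Over all genes tested PKR siRNA 1 gave shares of 8.53% higher and 12.6% lower and PKR siRNA 2 shares of 10.8% and 12.8%, so these counts are near or under the background. DESeq2 called 1 of the 16 with PKR siRNA 1. LSM10, a subunit of the U7 particle that cuts histone mRNA after the stem-loop, rose by 0.65 with PKR siRNA 1 (SE 0.14, limma adjusted p = 0.000109), fell by 0.63 with PKR siRNA 2 (SE 0.14, limma adjusted p = 0.000145), and differed by -1.28 between siRNA 2 and siRNA 1. ZNF473, a zinc-finger protein of the same complex, rose with both, by 0.60 and 1.00. With C16, 1 of the 16 rose and 1 fell at 400 nM, and 1 rose and 2 fell at 800 nM. Over all genes 7.08% were higher and 5.45% lower at 400 nM and 11.6% and 14.1% at 800 nM, so these counts are near or under the background too. DESeq2 called 1 of the 16 at 400 nM, and edgeR and DESeq2 called 2 each at 800 nM. ERI1, a nuclease that acts on the histone stem-loop, rose by 0.78 at 400 nM and by 1.11 at 800 nM. CPSF3, the nuclease that cuts both kinds of 3′ end, fell by 0.66 and by 1.04. CASP8AP2, a factor needed for histone gene expression in S phase, fell by 0.61 at 800 nM. Of 13 further cleavage and polyadenylation genes, limma, edgeR and DESeq2 each called 0 against control siRNA or DMSO in any of the 4 comparisons. At an unadjusted p under 0.05 there were 6 and 4 for the 2 siRNAs in order, 0 at 400 nM and 1 at 800 nM.

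Histone chaperones and exchange factors gave 3 higher and 1 lower of 25 with PKR siRNA 1, 0 higher and 3 lower with PKR siRNA 2, and 7 lower with siRNA 2 against siRNA 1. Against control siRNA these counts are near or under the shares of all genes just given, and between the siRNAs 15.3% of all genes were lower. NAP1L1, a chaperone of H2A and H2B, rose by 0.75 with PKR siRNA 1, and ASF1A, a chaperone of H3 and H4, by 0.75. ANP32E, which removes H2A.Z from nucleosomes, fell by 0.65 with PKR siRNA 2 and by 0.85 from siRNA 1 to siRNA 2, the comparison in which H2AFZ also fell. With C16, 1 of the 25 rose at 400 nM, and 1 rose and 1 fell at 800 nM. These counts are under the shares of all genes, 7.08% higher at 400 nM and 11.6% higher and 14.1% lower at 800 nM. CHAF1B, a subunit of the chaperone that loads H3 and H4 at replication, rose by 0.72 and 0.92, and ASF1B fell by 0.59 at 800 nM.

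Growth genes were read from 3 lists, and their part in the histone values was not tested. Of 24 DNA replication genes, 1 rose and 2 fell with PKR siRNA 1, none rose and 5 fell with PKR siRNA 2, and 5 rose at 400 nM and 10 at 800 nM C16 with none lower. Over all genes, 8.53% were called higher and 12.6% lower for PKR siRNA 1, so its counts on this list are under the background. For PKR siRNA 2 the share called lower was 12.8%. The shares called higher were 7.08% at 400 nM and 11.6% at 800 nM. The median log2 fold change of the 24 was -0.03, -0.31, 0.33 and 0.45 in these 4 comparisons, against medians of all tested genes between -0.01 and 0.00. CDC6, which loads the replicative helicase, rose by 1.43 at 800 nM and MCM3, a subunit of that helicase, fell by 0.80 with PKR siRNA 2. Of 15 mitosis and proliferation genes, 2 rose with PKR siRNA 1, 6 fell with PKR siRNA 2, and 14 were lower with siRNA 2 than with siRNA 1. The 2 that rose are near the 8.53% of all genes, and between the siRNAs 15.3% of all genes were lower. With C16 the 3 tools called 0 of the 15 at either dose, and 3 at 400 nM and 6 at 800 nM had an unadjusted limma p under 0.05. MKI67, a marker of cycling cells, was at 1177 ± 151 normalized counts in controls. It was at 1874 ± 123 with PKR siRNA 1 and at 798 ± 42.5 with PKR siRNA 2. By group mean HIST1H2BK and H2AFZ stood in the same order, but H1F0 and H3F3B stood in the reverse order. The low genes HIST2H2BE, HIST1H2BJ and HIST1H4H also stood in the order of MKI67, though their PKR siRNA 2 libraries overlapped the controls. HIST1H2BD and HIST1H2AC were highest with PKR siRNA 2, and HIST1H1C was lowest in controls. Of 7 CDK inhibitor and pocket protein genes tested, 3 rose with either siRNA, 2 rose and 1 fell at 400 nM, and 1 rose and 3 fell at 800 nM. On a list of 7, the 1 that rose at 800 nM is near the background. CDKN1A, which encodes the inhibitor p21, rose by 1.25 with PKR siRNA 2, and CDKN1B, which encodes p27, fell by 1.40 at 800 nM C16.

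The histone genes varied in different directions among themselves. As a description over 9 libraries that fall into 3 groups of 3, HIST1H2BK and H2AFZ varied most alike in the siRNA table (Pearson r = 0.957), and both ran against H3F3B (r = -0.828 and -0.878). In the C16 table H1F0 and H3F3B varied most alike (r = 0.914), and H1F0 and HIST1H2BD had r = 0.851. Non-histone genes most like the mean profile of the tested histone genes were HAUS7, TCEA2 and DDX10 in the siRNA table (r = 0.98, 0.98 and 0.97) and SUN2, OBSL1 and COL4A5 in the C16 table (r = 0.99 each). With 10578 and 9949 genes ranked over 9 points and the group differences shared by all of them, these values are descriptive.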

How the data were processed

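RNA-seq libraries were made from PANC-1 cells after poly(A) selection with a directional kit and sequenced as paired ends. TopHat alignment to hg38, featureCounts per gene and TMM scaling in TCC, separately for each table, were done by the authors. What they deposited is therefore a scaled signal, reads divided by 1 factor per library, with low genes kept. Annotation, strand and treatment of multi-mapping reads in counting are not given in the sources used here. Dividing by the value of 1 read gave whole numbers for 100% of values (tolerance 0.001), but 1 read is worth close to 1 in replicate 1 of PKR siRNA 2 and of 800 nM C16, where wholeness says little. Lengths in the deposited tables are in bases. Every column belonged to a sample, with 0 left over.

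Groups were taken from the sample labels. Genes whose mean over a table reached 10 normalized counts were tested with limma 3.58.1 (R 4.3.3) with a trend on log2(normalized count + 1), all 9 libraries of the table in 1 fit without a block, and Benjamini-Hochberg adjustment over all tested genes. Calls needed an adjusted p under 0.05 and a fold change over 1.5. Single values were also compared by exact two-sided permutation tests (SciPy 1.17.1), for which 0.1 is the smallest p. edgeR 4.0.16 and DESeq2 1.42.0 were run on the recovered reads as alternatives. Code was tested on simulated data. Libraries of a group differed by more than counting noise in 18 of 18 pairs, so none was merged. The depth of 894145 to 1474308 reads in the C16 table leaves its low genes less precise than the 1512940 to 1873906 of the siRNA table.

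Sequences were read from hg38 with the exon coordinates of the deposited tables, and promoters from RefSeq (GRCh38.p14). Alignment of promoters used Biopython 1.88. The 10 genes and all gene lists were chosen with earlier results of these data known. A further cell type marker is not reported here. All 10 genes were to be described in every library. Other histone genes were named where called in at least 1 comparison, and from each other list at most the 3 called genes with the largest absolute log2 fold change per comparison. The 3 non-histone genes per table with the highest Pearson r to the mean of the centred log2 values of the tested histone genes were named too. Alternatives were another pseudocount, another filter, rescaling by median of ratios, fitting only the 2 groups compared, a replicate block, the 2 count tests, and leaving out each library.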

Additional observations from a re-analysis of the deposited data

How the results depend on the processing

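Against control siRNA or DMSO the calls of HIST1H1C and HIST1H2BK with PKR siRNA 1, of HIST1H2BD with PKR siRNA 2, and of H1F0 and HIST1H2BD at 800 nM C16 kept direction and threshold under every alternative in which the gene was tested. Of 618 alternative values of single genes, 584 kept both, 14 lost a call, 6 gained one and 14 changed sign, all of the last in differences that were not called. The number of genes called at 400 nM against DMSO, 1, became 2 when only the 2 groups were fitted and 2 with edgeR, and 0 to 2 when 1 library was left out. At 800 nM against DMSO, 2 became 1 with a minimum mean of 30, which removes HIST1H2BD from the test, and 2 to 3 with 1 library left out. At 800 nM against 400 nM, 2 became 1 with a pseudocount of 5, without the filter, with a minimum mean of 30, with only the 2 groups fitted, with edgeR and with DESeq2, and 1 to 2 with 1 library left out. The call lost at 800 nM against 400 nM was that of HIST1H2BD each time. Leaving out 1 library gave 3 to 4 called genes for PKR siRNA 1 against control siRNA, 1 for PKR siRNA 2 against control siRNA and 3 to 4 for PKR siRNA 2 against PKR siRNA 1. The cause of these shifts was not tested beyond the tested set of the minimum mean.

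Sign changes were found for HIST1H2BK at 800 nM against 400 nM with median-of-ratios rescaling (0.018), edgeR (0.010) and DESeq2 (0.018), and over libraries left out (-0.079 to 0.13). Leaving out a library also turned HIST2H2BE with PKR siRNA 2 against control siRNA (-0.52 to 0.035), HIST1H2AC with PKR siRNA 2 against PKR siRNA 1 (-0.020 to 0.16), and HIST1H1C at 400 nM against DMSO (-0.40 to 0.10), at 800 nM against DMSO (-0.27 to 0.028) and at 800 nM against 400 nM (-0.23 to 0.27).

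Over all genes, calls at 800 nM against 400 nM were 113 higher and 394 lower, and 51 higher and 138 lower with DESeq2. With a minimum mean of 30, 82 were higher and 231 lower there, 473 and 296 against 705 and 543 at 400 nM against DMSO, and 818 and 800 against 1158 and 1403 at 800 nM against DMSO, with fewer genes tested.

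Replicate numbers are shared across groups, but same-numbered libraries did not deviate together (r of -0.0491 to 0.0324 over 18 pairs), and the libraries share only a number. With the replicate block the counts were 4, 1, 4, 1, 2 and 2 called genes in the 6 comparisons, the same as without it. Depth limits the genes under the filter, with 0 to 6 reads per library for HIST1H4H and HIST2H2BE in the C16 table.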
